A study of Mus musculus with 6 samples.

Results

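The fibrillar collagens are the collagens whose long triple helices pack side by side into banded fibrils, the main load-bearing fibers of the arterial wall. Their genes *Col1a1*, *Col1a2*, *Col3a1*, *Col5a1*, *Col5a2*, *Col5a3*, *Col11a1* and *Col11a2*, which encode the chains of types I, III, V and XI, were taken by symbol from the deposited table, giving 8 of its 55426 genes. Of these, 7 passed the expression minimum, a mean of 0.5 TPM over the libraries (TPM is a gene's share of the transcripts of its library, a level corrected for transcript length), and were among the 15775 genes tested. *Col11a1* did not pass it and is described by its values.

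RNA of the abdominal aorta was sequenced in 3 libraries from *Prdm16*SMKO mice and 3 from control mice to ask what the loss of PRDM16, a transcriptional regulator, does in vascular smooth muscle cells (VSMCs). All were males of the C57BL/6J strain. *Prdm16*SMKO mice are *Prdm16* fl/fl mice that carry *Myh11*-CreERT2, a Cre recombinase active in smooth muscle after tamoxifen, placed on the Y chromosome, and the controls are wild-type for *Prdm16* and carry the same Cre. For its aneurysm model the study treated males 8 to 10 weeks old with tamoxifen at 75 mg/kg/day by gavage for 5 days and induced aneurysm 2 weeks later; age and interval are not stated separately for the sequenced mice, which had received no elastase. Because Cre is driven by *Myh11*, *Prdm16* is left intact in the endothelial cells, fibroblasts and other cells whose RNA is in the same extract. In RNA of a whole vessel, fewer cells of a type and less RNA per cell cannot be told apart.

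Each collagen chain carries the repeat Gly-X-Y, in which glycine recurs at the head of each triplet because only glycine fits the center of the triple helix. Type I collagen is built from 2 alpha1 chains and 1 alpha2 chain and gives the vessel tensile strength. Type III is a homotrimer of the product of *Col3a1* and is abundant in distensible tissues, among them the aorta, where mutations in human *COL3A1* cause vascular Ehlers-Danlos syndrome. Type V chains sit inside type I and III fibrils and limit their diameter, and human *COL5A1* and *COL5A2* are genes of classical Ehlers-Danlos syndrome. Type XI chains do the same in the type II fibrils of cartilage and can join type V chains in mixed trimers. VSMCs and adventitial fibroblasts are the main sources of fibrillar collagen in the aorta.

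The shared unit of these genes is an exon of 54 bases that encodes 6 Gly-X-Y triplets. In the annotation GENCODE M21 on GRCm38, the transcript with the longest coding sequence has 21 such exons in *Col1a1*, 24 in *Col1a2*, *Col3a1* and *Col5a2*, 29 in *Col5a1* and 31 in *Col5a3*, *Col11a1* and *Col11a2*. All of them start in frame, and all but 1 of those in *Col1a2* hold 6 glycine codons at the expected spacing. The first such exon of the 6 chains with the highest levels is shown from the GENCODE M21 transcripts, 5′ to 3′ in the direction of the gene, with the glycine codon GGN at the head of each Gly-X-Y triplet in capitals, because this repeat is what makes the chains one family.

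*Col1a1* exon 8, chr11:94939904-94939957, plus strand: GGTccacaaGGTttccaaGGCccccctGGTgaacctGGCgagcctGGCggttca
*Col1a2* exon 8, chr6:4515481-4515534, plus strand: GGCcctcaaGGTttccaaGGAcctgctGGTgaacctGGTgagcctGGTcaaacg
*Col3a1* exon 6, chr1:45325360-45325413, plus strand: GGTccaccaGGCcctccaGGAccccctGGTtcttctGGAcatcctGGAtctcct
*Col5a1* exon 15, chr2:27965251-27965304, plus strand: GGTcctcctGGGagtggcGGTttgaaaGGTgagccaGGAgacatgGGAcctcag
*Col5a2* exon 6, chr1:45434892-45434945, minus strand: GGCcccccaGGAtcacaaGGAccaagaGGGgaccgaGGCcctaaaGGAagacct
*Col5a3* exon 15, chr9:20801068-20801121, minus strand: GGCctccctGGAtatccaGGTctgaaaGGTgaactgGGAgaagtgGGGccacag

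Exon numbers are those of that transcript, and all of these exons are coding. The capitals line up at the same positions in the 6 exons.

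On GRCm38 the genes lie on 7 chromosomes. *Col1a1* (ENSMUSG00000001506) is at chr11:94936224-94953042, *Col1a2* (ENSMUSG00000029661) at chr6:4504814-4541544, *Col5a1* (ENSMUSG00000026837) at chr2:27886425-28039514, *Col5a3* (ENSMUSG00000004098) at chr9:20770050-20815067, *Col11a1* (ENSMUSG00000027966) at chr3:114030540-114220718 and *Col11a2* (ENSMUSG00000024330) at chr17:34039437-34066685. *Col3a1* (ENSMUSG00000026043), at chr1:45311538-45349706 on the plus strand, and *Col5a2* (ENSMUSG00000026042), at chr1:45374321-45503282 on the minus strand, are neighbors whose 3′ ends lie 24.6 kb apart. The library kit does not mark strand, so reads of *Col5a1* and of 2 noncoding genes inside it on the other strand, 2810430I11Rik (0.65 to 1.43 TPM) and Gm13372 (0 to 2.15 TPM), cannot be told apart by strand. Genes annotated inside *Col1a2* (Gm43921, 0.73 to 1.45 TPM) and *Col5a2* (Gm38211, 0.44 to 0.68 TPM) were also far below their hosts.

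Values of single libraries are given in the order of replicates 1, 2 and 3 of each group. *Prdm16* itself was checked first. It stood at 33.4, 36.8 and 30.8 TPM in the controls against 20.8, 27.7 and 14.8 TPM in the *Prdm16*SMKO aortas. The groups did not overlap. The log2 fold change was −0.71 (SE 0.22; limma, Benjamini-Hochberg adjusted p = 0.376, 0.0834 to 0.686 over the alternatives), so the direction matched the labels but the gene did not pass the test over all genes. A TPM of the whole gene does not separate deleted exons from those left in place.

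The libraries differed in ways that touch these genes. Mitochondrial genes took 27.3% and 27.4% of all TPM in replicates 1 and 3 of *Prdm16*SMKO mice, 15.8% in *Prdm16*SMKO replicate 2 and 19.1% to 23.2% in the controls. *Prdm16*SMKO replicate 1 stood apart in markers of Schwann cells and neurons (a summed 439 TPM, against 18.7 to 124 in the other 5 libraries) and of striated muscle (56.6 against 5.74 to 14.2 TPM), and *Prdm16*SMKO replicate 3 in adipocyte markers (3208 against 571 to 1286 TPM). The 12 VSMC markers all passed the minimum, as the tissue label says, and summed to 15520 to 26230 TPM in control and 12110 to 18490 TPM in *Prdm16*SMKO libraries. Control replicate 2 stood apart in this sum, at 26230 TPM against 12110 to 18490 TPM in the other 5 libraries. Over all genes tested, 27 were lower and 29 higher in *Prdm16*SMKO libraries at an adjusted p under 0.05, and the median log2 fold change was 0.02.

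*Col3a1*, *Col1a2* and *Col1a1* were among the most abundant transcripts of the vessel. Over the 6 libraries *Col3a1* averaged 691 TPM, *Col1a2* 543 TPM and *Col1a1* 405 TPM, and only 0.647%, 0.824% and 1.18% of the genes tested had a higher mean. The type V chains followed at 143 TPM for *Col5a1*, 70.4 TPM for *Col5a2* and 5.36 TPM for *Col5a3*. The type XI chains, known for cartilage, came last at 2.76 TPM for *Col11a2* and 0.347 TPM for *Col11a1*. Each chain in this order was above the next in 6 of 6 libraries, so no neighbors changed places in any library. Within a library *Col3a1* was 1.08 to 1.48 times *Col1a2*, *Col1a2* was 1.23 to 1.44 times *Col1a1*, and *Col5a3* was 1.11 to 3.91 times *Col11a2*. In *Prdm16*SMKO libraries *Col3a1*, at 521 ± 127 TPM, and *Col1a2*, at 474 ± 115 TPM (SD, n = 3), were closer than the SD of either. *Col1a1* followed at 334 ± 84.8 TPM, *Col5a3* was at 6.62 ± 2.12, *Col11a2* at 2.50 ± 1.78 and *Col11a1* at 0.50 ± 0.315 TPM, and each of these was farther from its neighbor above than the SD of either.

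**Figure D1:**
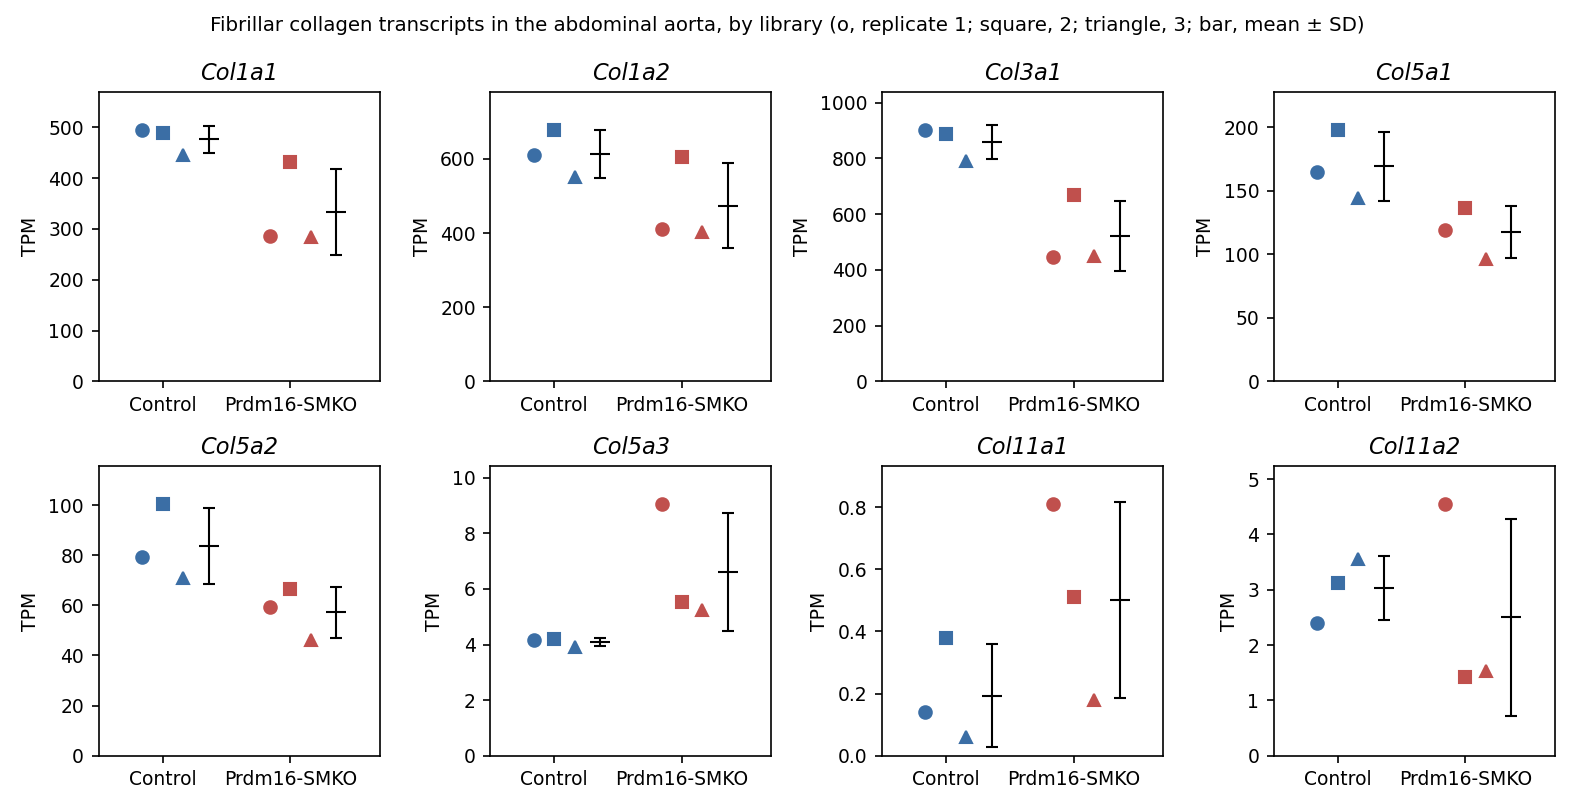
TPM of each fibrillar collagen gene in every library, with 1 panel per gene on its own linear axis from 0; blue symbols are control and red symbols *Prdm16*SMKO libraries, symbol shapes give the replicate, and bars give the mean ± SD of 3 libraries. *Col1a1*, *Col3a1*, *Col5a1* and *Col5a2* sit lower in all 3 *Prdm16*SMKO libraries than in any control library, and *Col5a3* sits higher.

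The summed TPM of the 8 genes was 2259, 2360 and 2008 in control replicates 1, 2 and 3 and 1337, 1916 and 1287 in *Prdm16*SMKO replicates 1, 2 and 3. The groups did not overlap, and the mean was 31.5% lower in *Prdm16*SMKO libraries (2209 ± 181 against 1513 ± 350, SD, n = 3 each; two-sided exact permutation test, p = 0.1, the smallest that 3 libraries against 3 can give). Taken as a share of the TPM outside mitochondrial genes and the 18S ribosomal RNA locus, which removes the effect of those shares on the scale, the sum was 0.387% ± 0.0122 in control and 0.267% ± 0.0567 in *Prdm16*SMKO libraries, 31.1% lower. *Prdm16*SMKO replicate 2, with the lowest mitochondrial share, was the *Prdm16*SMKO library closest to the controls on both scales.

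Among the 7 chains tested, 6 had a lower level in *Prdm16*SMKO aortas and *Col5a3* a higher one, and none passed an adjusted p under 0.05, a threshold that 0.355% of all genes passed. At an unadjusted limma p under 0.05 there were 5 of 7 chains, against 8.74% of all genes tested: 4 lower (3.85% of all genes) and 1 higher (4.88% of all genes). The same 4 chains had every *Prdm16*SMKO library below every control library, which held for 5.76% of all genes, and *Col5a3* had every *Prdm16*SMKO library above every control library, which held for 7.02%. The median log2 fold change of the 7 chains was −0.53, beside 0.02 over all genes, and lay between −0.64 and −0.39 over the 15 alternatives, with 6 of the 7 lower in each. The chains come from the same libraries, and several of them varied together across these, so the counts are not of independent genes.

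*Col1a1*, the alpha1 chain of type I collagen, stood at 495, 488 and 445 TPM in the controls against 285, 432 and 284 TPM in the *Prdm16*SMKO aortas. The groups did not overlap, although *Prdm16*SMKO replicate 2 lay close to the lowest control. The log2 fold change was −0.54 (SE 0.19, 95% interval −0.98 to −0.10; limma, Benjamini-Hochberg adjusted p = 0.447, 0.0875 to 0.854 over the alternatives), and it was −0.74 without *Prdm16*SMKO replicate 2 and −0.44 without *Prdm16*SMKO replicate 3. *Col1a2*, its partner in the trimer, stood at 610, 678 and 551 TPM in the controls against 412, 606 and 404 TPM in the *Prdm16*SMKO aortas. Here the groups overlapped, since *Prdm16*SMKO replicate 2 lay above control replicate 3, and the log2 fold change of −0.39 (95% interval −0.84 to 0.05) had an unadjusted limma p of 0.0772.

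*Col3a1*, the gene of type III collagen, had the largest log2 difference of the 7 chains tested when all 6 libraries were fitted. Its level was 903, 887 and 789 TPM in control replicates 1, 2 and 3 and 447, 668 and 449.8 TPM in the *Prdm16*SMKO aortas. All 3 *Prdm16*SMKO libraries were below the lowest control, with means of 859.7 ± 61.5 TPM in control and 521 ± 127 TPM in *Prdm16*SMKO libraries (SD, n = 3 each). The log2 fold change was −0.74 (SE 0.19, 95% interval −1.18 to −0.31; limma, Benjamini-Hochberg adjusted p = 0.234). It ranked 275 of 15775 genes by p, and passed 0.05 in 1 of the 15 alternatives, in which libraries were weighted by their quality (adjusted p = 0.0334, range over the alternatives 0.0334 to 0.605). Because the study named this gene from the same libraries, its direction here is not independent evidence. The study also reported *Col3a1* as lower by qPCR of abdominal aortas, data that were not part of the values used here.

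The major type V chains, which set fibril diameter, were also lower in every *Prdm16*SMKO library than in any control library. *Col5a1* stood at 165, 198 and 144 TPM in the controls against 119, 137 and 96.5 TPM in the *Prdm16*SMKO aortas, a log2 fold change of −0.53 (95% interval −0.95 to −0.11; limma adjusted p = 0.441). *Col5a2* stood at 79.3, 100.4 and 70.9 TPM in the controls against 59.2, 66.3 and 46.1 TPM in the *Prdm16*SMKO aortas, a log2 fold change of −0.54 (95% interval −0.98 to −0.10; limma adjusted p = 0.447). In both genes control replicate 2 was the highest and *Prdm16*SMKO replicate 3 the lowest library, and the groups did not overlap. Without control replicate 2, the log2 fold change of *Col5a1* became −0.41 and that of *Col5a2* −0.40.

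*Col5a3*, the minor type V chain, differed in the other direction. It stood at 4.18, 4.20 and 3.93 TPM in the controls against 9.06, 5.55 and 5.25 TPM in the *Prdm16*SMKO aortas. All *Prdm16*SMKO libraries were above the highest control, and replicate 1 was far above the other two. The log2 fold change was 0.59 (SE 0.23, 95% interval 0.07 to 1.11; limma adjusted p = 0.496, 0.115 to 0.834 over the alternatives) and 0.36 without *Prdm16*SMKO replicate 1, the library with the highest Schwann cell, neuron and striated muscle markers, whose part in this value was not tested.

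The type XI chains were low in both groups. *Col11a2* stood at 2.40, 3.13 and 3.55 TPM in the controls against 4.55, 1.42 and 1.53 TPM in the *Prdm16*SMKO aortas. The groups overlapped because *Prdm16*SMKO replicate 1 was the highest library and the other *Prdm16*SMKO libraries the lowest, and the log2 fold change was −0.37 (95% interval −1.23 to 0.49; limma adjusted p = 0.905). It was −0.82 without *Prdm16*SMKO replicate 1, −0.13 without *Prdm16*SMKO replicate 2 and −0.17 without *Prdm16*SMKO replicate 3, so its size rested on single libraries. *Col11a1* stood at 0.14, 0.38 and 0.06 TPM in the controls against 0.81, 0.51 and 0.18 TPM in the *Prdm16*SMKO aortas. These values overlapped, and their mean over the libraries was below the minimum for testing. The highest was again in *Prdm16*SMKO replicate 1. *Col2a1*, the fibril partner of type XI in cartilage, was at 0.02 to 0.53 TPM, and the cartilage gene *Matn1* was listed at 0 in all libraries.

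**Figure D2:**
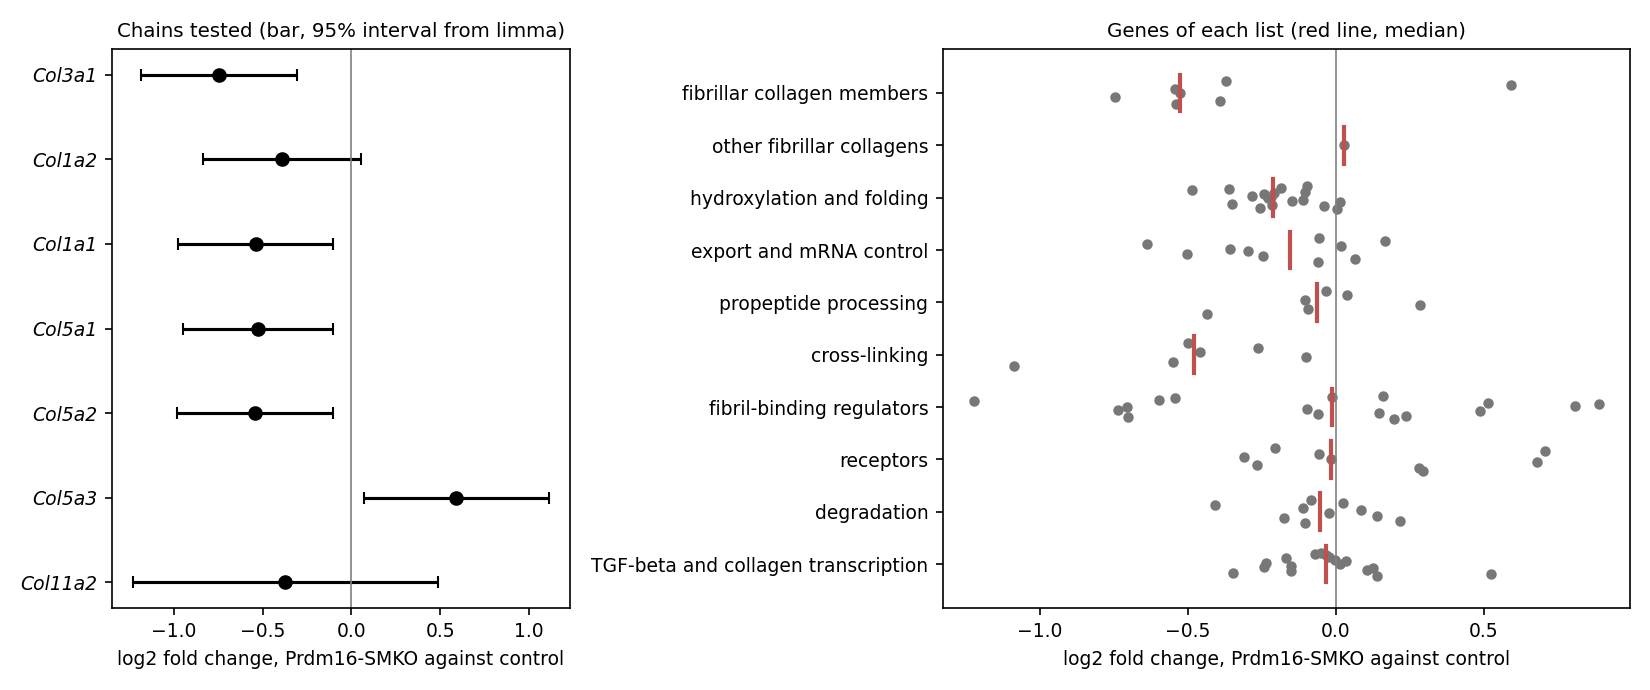
Log2 fold change of *Prdm16*SMKO against control aortas on log2(TPM + 0.5): left, the 7 chains tested, with points for the estimate and bars for the 95% interval from limma; right, every tested gene of each list as a gray point and the list's median as a red line. The intervals of *Col1a2* and *Col11a2* cross 0. Among the lists of the collagen pathway, the medians of the collagens (−0.53) and of the cross-linking enzymes (−0.48) lie farthest from 0.

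The make-up of the collagen pool was then compared within each library, which does not depend on a single scaling factor per library. *Col3a1* supplied 40.0%, 37.6% and 39.3% of the summed TPM of the 8 genes in control replicates 1, 2 and 3 and 33.4%, 34.9% and 34.9% in *Prdm16*SMKO replicates 1, 2 and 3. *Col1a2* supplied 27.0%, 28.8% and 27.4% in controls and 30.8%, 31.6% and 31.4% in *Prdm16*SMKO replicates. For both chains the groups did not overlap, with *Col3a1* lower and *Col1a2* higher in *Prdm16*SMKO libraries (exact permutation test, p = 0.1 each, the smallest possible). *Col1a1* supplied 21.6% ± 0.794 in control and 22.0% ± 0.597 in *Prdm16*SMKO libraries (SD, n = 3 each; exact permutation test, p = 0.6), *Col5a1* 7.62% and 7.85% and *Col5a2* 3.77% and 3.82% on average, with overlapping groups. *Col5a3* supplied 0.178% to 0.196% in controls and 0.290% to 0.678% in *Prdm16*SMKO libraries. Shares of 1 sum are bound to each other, so a lower share of *Col3a1* raises the others.

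**Figure D3:**
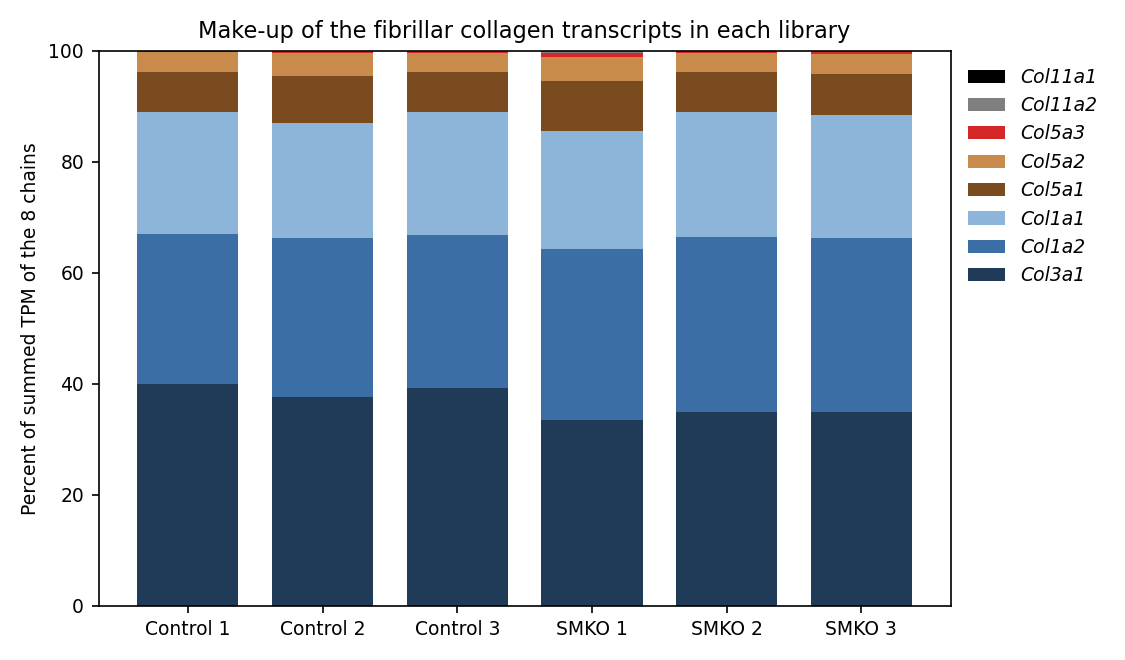
Percent of the summed TPM of the 8 fibrillar collagen genes that each gene supplies, with 1 stacked bar per library (Control and SMKO replicates 1, 2 and 3) on an axis from 0 to 100%. The dark *Col3a1* block reaches 37.6% to 40.0% in control and 33.4% to 34.9% in SMKO libraries, and the red *Col5a3* sliver is thickest in SMKO replicate 1, at 0.678%.

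Some ratios of 2 chains varied less between libraries than the levels did. The *Col3a1* to *Col1a1* ratio was 1.82, 1.82 and 1.77 in control replicates 1, 2 and 3 and 1.57, 1.55 and 1.58 in *Prdm16*SMKO replicates 1, 2 and 3. These groups were well separated, a difference of −0.21 on the log2 scale (SE 0.016; 0.867-fold; exact permutation test, p = 0.1, adjusted p = 0.175 over 7 ratios), and *Prdm16*SMKO replicate 2, which had the highest level of its group in both genes, was not set apart in their ratio. Leaving out 1 library at a time moved this difference between −0.22 and −0.20. The *Col3a1* to *Col1a2* ratio was 1.48, 1.31 and 1.43 in controls and 1.08, 1.10 and 1.11 in *Prdm16*SMKO replicates, 0.783-fold, also without overlap. The *Col1a1* to *Col1a2* ratio was 0.811, 0.720 and 0.809 in controls and 0.693, 0.712 and 0.704 in *Prdm16*SMKO replicates, 0.903-fold. These groups did not overlap, but control replicate 2 lay just above the highest *Prdm16*SMKO library, and with quantile normalization the log2 difference went from −0.15 to −0.085 (exact permutation test, p = 0.4). In every library the TPM of *Col1a2* was thus above that of *Col1a1*, although the trimer holds more alpha1 chains. The annotation behind these TPM is not given, and any bias between the 2 genes in measurement was not tested.

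The *Col5a1* to *Col5a2* ratio was nearly the same in every library. It was 2.08, 1.97 and 2.03 in control replicates and 2.01, 2.06 and 2.09 in *Prdm16*SMKO replicates, a difference of 0.02 on the log2 scale (SE 0.028; exact permutation test, p = 0.6), although the levels behind it ran from 96.5 to 198 TPM for *Col5a1* and from 46.1 to 100.4 TPM for *Col5a2*. The ratios of *Col5a1* and of *Col5a2* to *Col1a1* overlapped between groups (0.324 to 0.405 against 0.317 to 0.417, and 0.159 to 0.206 against 0.154 to 0.207), with differences of 0.01 and −0.01 on the log2 scale whose standard errors were 0.16 and 0.18. The *Col5a3* to *Col5a1* ratio was 0.0253, 0.0212 and 0.0273 in controls and 0.0761, 0.0406 and 0.0544 in *Prdm16*SMKO replicates, 2.26-fold higher without overlap (exact permutation test, p = 0.1, adjusted p = 0.175), and 0.94 on the log2 scale without *Prdm16*SMKO replicate 1 against 1.17 with it. With 3 libraries against 3, none of the 7 ratios could reach 0.05 in the exact permutation test.

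**Figure D4:**
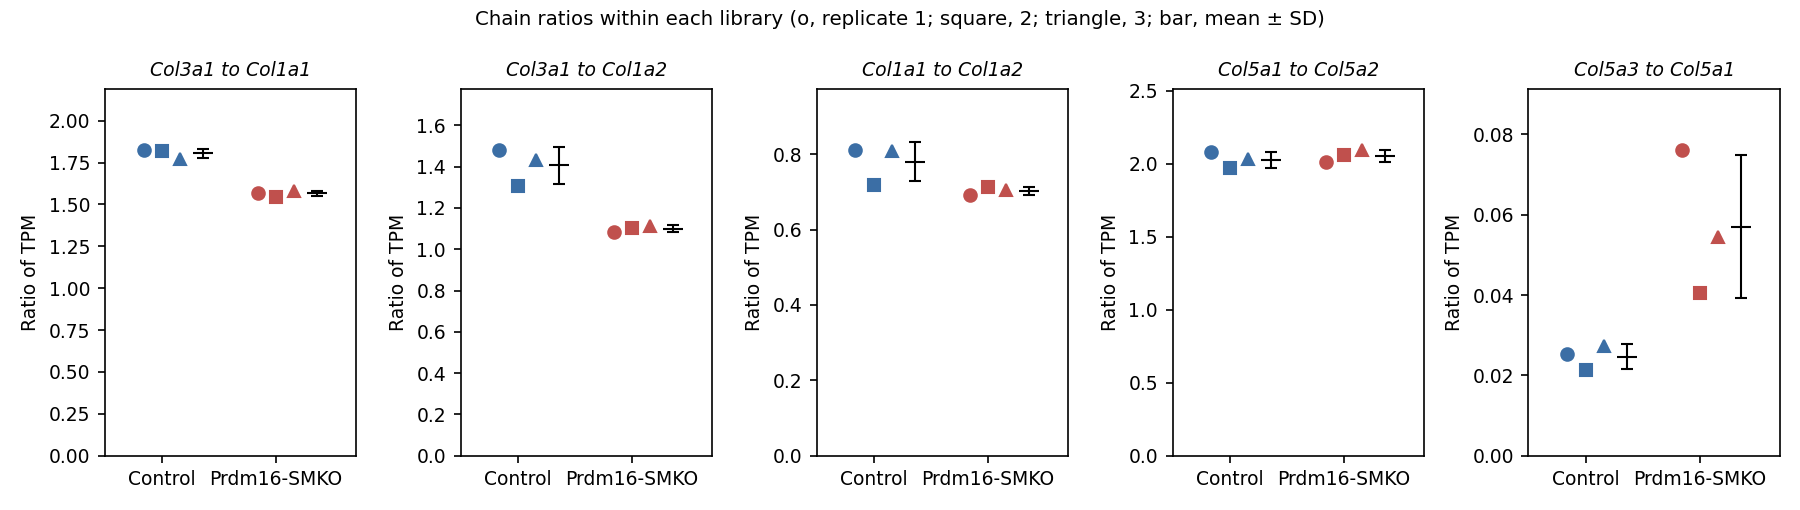
Ratio of the TPM of 2 chains within a library for 5 of the 7 ratios, each on its own linear axis from 0; blue symbols are control and red symbols *Prdm16*SMKO libraries, shapes give the replicate and bars the mean ± SD of 3 libraries. *Col3a1* to *Col1a1* is 1.77 to 1.82 in control and 1.55 to 1.58 in *Prdm16*SMKO libraries, while *Col5a1* to *Col5a2* is 1.97 to 2.09 over both groups.

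Across the 6 libraries the chains of types I and III varied together, as did the major chains of type V. On log2(TPM + 0.5), Pearson's r was 0.998 between *Col5a1* and *Col5a2* and 0.987 between *Col1a1* and *Col3a1*, and after the group means were removed it was 0.994 and 0.997. *Col1a1* and *Col1a2* gave 0.969, and 0.961 within groups, and *Col1a2* and *Col3a1* gave 0.936, and 0.966 within groups. *Col3a1* and *Col5a1* gave 0.907 but 0.711 within groups. *Col5a3* ran against *Col3a1*, at −0.80 over the libraries and −0.37 within groups, and gave 0.244 with *Col11a2* over the libraries and 0.913 within groups, both genes being highest in *Prdm16*SMKO replicate 1. These are descriptions over 6 points that share each library's preparation and scaling, and the difference between groups enters each pooled value.

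The genes most like the mean profile of the 7 chains, of 9663 other genes at a mean of 5 TPM or more, were *Inhba* (r = 0.997), *Kdelr3* (0.995), *Ttc3* (0.993), *Ndrg1* (0.991) and *Epc1* (0.989), each with a Spearman's rho of 0.943 over the 6 libraries. *Inhba* encodes the activin beta A subunit, a TGF-beta family ligand, and *Kdelr3* a receptor that returns proteins to the endoplasmic reticulum. *Inhba* stood at 34.1, 38.2 and 33.4 TPM in the controls against 29.3, 29.0 and 22.4 TPM in the *Prdm16*SMKO aortas. *Ndrg1*, a stress-responsive gene, stood at 82.2, 99.9 and 73.6 TPM in the controls against 66.3, 64.7 and 45.8 TPM in the *Prdm16*SMKO aortas. Without control replicate 2 and *Prdm16*SMKO replicate 3, the libraries farthest from the median of the profile, the 5 values of r lay between 0.919 and 0.985. These genes were picked for the highest r among 9663 over 6 libraries, so high values follow from the choice, also after libraries are left out. Whether the genes share any control with the chains was not tested. The profile weights each chain alike, so *Col5a3* and *Col11a2* enter it as much as *Col3a1* does.

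The upstream regions of 6 chains, all except *Col1a1* and *Col5a2*, were taken from RefSeq on GRCm38.p6 as the 250 bases before the RefSeq start. That start is not the GENCODE start given above for *Col1a2*, whose window lies inside the GENCODE gene, or for *Col11a2*, whose window ends upstream of the GENCODE start. Windows of 2 chains that were lower and of *Col5a3*, which was higher, are shown 5′ to 3′ in the direction of the gene, with matches in capitals to CCAAT, the letters bound by NF-Y, to GGGCGG, a GC box bound by Sp1, and to TATAAA, the TATA box, each on either strand.

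*Col3a1*, chr1:45311288-45311537, plus strand: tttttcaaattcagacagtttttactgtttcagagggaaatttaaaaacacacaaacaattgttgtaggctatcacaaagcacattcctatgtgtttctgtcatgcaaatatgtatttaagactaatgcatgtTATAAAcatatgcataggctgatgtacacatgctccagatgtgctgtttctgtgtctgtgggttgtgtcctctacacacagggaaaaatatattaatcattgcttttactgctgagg
*Col5a1*, chr2:27886175-27886424, plus strand: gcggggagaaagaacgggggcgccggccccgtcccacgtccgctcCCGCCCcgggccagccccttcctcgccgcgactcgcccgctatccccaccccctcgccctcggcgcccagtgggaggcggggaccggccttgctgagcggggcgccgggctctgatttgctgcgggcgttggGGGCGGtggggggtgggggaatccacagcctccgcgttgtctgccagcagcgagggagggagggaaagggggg
*Col5a3*, chr9:20815068-20815317, minus strand: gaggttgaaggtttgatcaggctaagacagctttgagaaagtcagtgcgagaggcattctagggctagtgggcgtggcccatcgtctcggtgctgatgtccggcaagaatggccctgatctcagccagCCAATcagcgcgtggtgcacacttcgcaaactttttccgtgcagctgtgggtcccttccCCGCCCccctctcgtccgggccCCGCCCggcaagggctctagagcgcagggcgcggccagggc

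The window of *Col3a1* held TATAAA 117 bases before the start, neither of the other motifs, and 35.2% G and C, against a median of 52.4% over all windows of that length. That of *Col5a1* was 76.4% G and C with 2 matches to GGGCGG, starting 205 and 73 bases before the start, and neither of the other motifs. That of *Col5a3* held CCAAT 122 bases before the start and GGGCGG 63 and 41 bases before it, with 62.8% G and C. The windows of *Col1a2* and *Col11a1* each held 1 CCAAT and 2 GGGCGG, and that of *Col11a2* held 2 GGGCGG and 1 TATAAA, so *Col1a2*, lower in *Prdm16*SMKO libraries, and *Col5a3*, higher, had the same count of each motif. No match overlapped a match to another motif. Of 32851 mouse windows of this length, 33.8% held CCAAT, 32.7% GGGCGG and 12.4% TATAAA on either strand. A match is a description of letters, not evidence of a bound site.

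The genes that build, export, cut, cross-link and bind the fibrils were described next, list by list. The lists hold genes with a textbook role in each step. In them 1 gene, *Comp*, had a limma adjusted p under 0.05, a threshold that 0.355% of all genes tested passed. As a background to the tallies below, 7223 of all 15775 genes tested were lower and 8552 higher in *Prdm16*SMKO libraries. Among the other fibrillar collagens, *Col27a1* stood at 7.70 to 12.7 TPM in control and 8.86 to 12.2 TPM in *Prdm16*SMKO libraries, and *Col2a1* and *Col24a1* did not reach the minimum.

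Of 18 tested genes that hydroxylate and fold the chains in the endoplasmic reticulum, 16 were lower and 2 higher in *Prdm16*SMKO libraries, with a median log2 fold change of −0.21. Leaving out control replicate 2 made the median −0.07, and leaving out *Prdm16*SMKO replicate 3 made it −0.11. At an unadjusted limma p under 0.05 there were 2 of the 18, both lower, beside 3.85% of all genes tested in that direction. *Serpinh1*, which encodes the collagen chaperone HSP47, stood at 442, 541 and 461 TPM in the controls against 361, 375 and 296 TPM in the *Prdm16*SMKO aortas, groups that did not overlap (log2 fold change −0.49; limma adjusted p = 0.409, 0.109 to 0.692 over the alternatives). *Plod2*, a lysyl hydroxylase whose product directs the type of cross-link, stood at 22.9 to 33.8 TPM in control and 25.7 to 29.0 TPM in *Prdm16*SMKO libraries.

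In the list for export and mRNA control, 7 of 10 genes were lower and the median was −0.15, or −0.10 without control replicate 2 and −0.23 without control replicate 3 or *Prdm16*SMKO replicate 2. At an unadjusted limma p under 0.05 there were 2, both lower (3.85% of all genes). *Creb3l1*, a transcription factor that activates *Col1a1* in bone, stood at 23.3, 32.0 and 26.4 TPM in the controls against 15.9, 20.3 and 15.6 TPM in the *Prdm16*SMKO aortas, without overlap (log2 fold change −0.64; limma adjusted p = 0.295, 0.115 to 0.555 over the alternatives). *Sec31a*, a COPII coat component and the most abundant gene of the list, overlapped between groups at 102 to 150 and 77.3 to 107 TPM. *Larp6*, whose product binds the stem-loop of type I collagen mRNAs, was at 2.13 to 2.35 TPM in control and 2.17 to 3.37 TPM in *Prdm16*SMKO libraries.

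Of 6 tested genes of propeptide processing, 4 were lower and 2 higher, with a median of −0.06, and 1 was lower at an unadjusted limma p under 0.05 (3.85% of all genes). *Adamts2*, the N-proteinase of types I, II and III, stood at 44.3, 49.4 and 47.2 TPM in the controls against 28.4, 45.4 and 31.9 TPM in the *Prdm16*SMKO aortas, overlapping only through *Prdm16*SMKO replicate 2 (log2 fold change −0.44; limma adjusted p = 0.570). *Adamts14*, a related N-proteinase, was at 3.72 to 5.67 and 4.56 to 7.51 TPM, and *Pcolce*, an enhancer of C-proteinase, at 59.4 to 66.7 and 58.2 to 76.7 TPM.

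Among these lists of the collagen pathway, the cross-linking enzymes had the lowest median, −0.48. All 6 were lower in *Prdm16*SMKO libraries, 3 at an unadjusted limma p under 0.05 (3.85% of all genes), and 3 had every *Prdm16*SMKO library below every control library (5.76% of all genes). The median became −0.31 when control replicate 2 was left out and −0.33 when *Prdm16*SMKO replicate 3 was. The study named *Lox* too from these libraries and also reported it as lower by qPCR. *Lox* encodes the lysyl oxidase that starts covalent cross-links in collagen and elastin. It stood at 64.7, 67.3 and 60.6 TPM in the controls against 25.2, 43.5 and 24.4 TPM in the *Prdm16*SMKO aortas. It showed the same order among *Prdm16*SMKO libraries as *Col1a1* and *Col3a1* in that replicate 2 was the highest, and its log2 fold change of −1.09 had a limma adjusted p of 0.108 (0.0218 to 0.331 over the alternatives). *Tgm2*, a transglutaminase and the most abundant gene of the list, stood at 272 to 417 TPM in control and 188 to 253 TPM in *Prdm16*SMKO libraries (log2 fold change −0.50; limma adjusted p = 0.534), and *Loxl2* at 16.1 to 24.0 and 14.9 to 21.3 TPM.

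Proteins that bind the fibril surface split in both directions, with 9 of 17 tested genes lower and 8 higher and a median of −0.01. At an unadjusted limma p under 0.05 there were 6 lower and 2 higher (3.85% and 4.88% of all genes), and 6 were below and 2 above the controls in every *Prdm16*SMKO library (5.76% and 7.02% of all genes). *Comp*, which encodes cartilage oligomeric matrix protein, a binder of type I collagen, fell from 18.8, 23.0 and 19.2 TPM in control to 7.37, 8.97 and 8.92 TPM in the *Prdm16*SMKO aortas (log2 fold change −1.22; limma adjusted p = 0.0265), a call lost without any 1 of the 6 libraries (adjusted p 0.0613 to 0.114). *Bgn*, the proteoglycan biglycan, stood at 1869, 2660 and 1842 TPM in the controls against 1382, 1441 and 1071 TPM in the *Prdm16*SMKO aortas (log2 fold change −0.70; limma adjusted p = 0.332). *Col14a1*, a collagen that coats fibrils without forming them, was higher, at 45.1, 49.3 and 44.6 TPM in the controls against 83.1, 102 and 75.1 TPM in the *Prdm16*SMKO aortas (log2 fold change 0.89; limma adjusted p = 0.0666, 0.00688 to 0.29 over the alternatives). Like *Col5a3* it stood above the controls in every *Prdm16*SMKO library, but its highest value was in replicate 2 and not in replicate 1.

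Receptors, degradation and TGF-beta signaling showed medians near that of all genes, and these, like the medians for propeptide processing and fibril binding, lay on both sides of 0 as single libraries were left out. Of 9 tested receptors, 5 were lower and 4 higher (median −0.02). At an unadjusted limma p under 0.05 there was 1, higher (4.88% of all genes), *Itga11*, the alpha subunit of a collagen-binding integrin, at 1.01, 1.79 and 1.25 TPM in the controls against 2.22, 2.71 and 2.35 TPM in the *Prdm16*SMKO aortas, without overlap. *Itgb1*, the beta1 integrin shared by the collagen-binding integrins, stood at 584 to 794 TPM in control and 548 to 709 TPM in *Prdm16*SMKO libraries. *Ddr1*, a receptor tyrosine kinase for collagen, was at 31.2 to 48.8 and 25.4 to 37.9 TPM, and *Lair1*, an inhibitory collagen receptor of leukocytes, was under 1 TPM in every library. Of 10 tested genes of degradation, 6 were lower and 4 higher (median −0.05). Of these, 1 was lower at an unadjusted limma p under 0.05 (3.85% of all genes). The collagenase genes *Mmp8* and *Mmp13* did not reach the minimum, *Mmp9* was at 0.92 to 1.76 and 0.89 to 2.96 TPM, and *Timp3*, the most abundant inhibitor, at 336 to 462 and 331 to 423 TPM. *Timp1*, another inhibitor of metalloproteinases, stood at 13.4, 12.6 and 11.1 TPM in the controls against 9.58, 10.4 and 7.66 TPM in the *Prdm16*SMKO aortas (log2 fold change −0.41; limma adjusted p = 0.561).

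Of 17 genes of TGF-beta signaling and collagen transcription, 11 were lower and 6 higher (median −0.03). Of these, 1 was higher at an unadjusted limma p under 0.05 (4.88% of all genes). *Tgfb2*, a TGF-beta ligand, stood at 19.7, 25.1 and 20.4 TPM in the controls against 32.3, 34.9 and 27.2 TPM in the *Prdm16*SMKO aortas, all *Prdm16*SMKO libraries higher (log2 fold change 0.53; limma adjusted p = 0.379, 0.0303 to 0.828 over the alternatives). *Tgfb3* lay the other way at 86.1 to 124 and 72.9 to 93.4 TPM, with overlap. *Ccn2*, a target of TGF-beta and the most abundant gene of the list, was at 1049 to 1263 TPM in control and 889 to 1137 TPM in *Prdm16*SMKO libraries. None of the 17 passed an adjusted p under 0.05.

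Markers of the cell types in the extract were set beside these values. Of 12 markers of VSMCs, 9 were lower and 3 higher in *Prdm16*SMKO libraries (median log2 fold change −0.27), with the overlapping sums given at the start. Not all of the 9 stayed lower without control replicate 2, whose sum was the highest. Of 12 fibroblast markers, 2 were lower and 10 higher (median 0.08), but this tally rested on *Prdm16*SMKO replicate 2. Without that library most of them were lower, with log2 fold changes from −0.23 to 0.29. The fibroblast markers summed to 1074, 1033 and 1204 TPM in the controls against 899.9, 1597 and 1211 TPM in the *Prdm16*SMKO aortas. *Prdm16*SMKO replicate 2, with the highest collagen sum of its group, also had the highest fibroblast marker sum. *Prdm16*SMKO replicate 1, with a collagen sum of 1337 TPM, had the lowest fibroblast marker sum. *Prdm16*SMKO replicate 3, with the lowest collagen sum, 1287 TPM, was close to the highest control in fibroblast markers, at 1211 against 1204 TPM. Macrophage markers summed to 82.3 to 129 TPM in control and 130 to 238 TPM in *Prdm16*SMKO libraries (9 of 10 higher, median 0.73), endothelial markers to 339 to 410 and 359 to 578 TPM (7 of 10 higher, median 0.27), adipocyte markers to 608 to 1286 and 571 to 3208 TPM (7 of 9 higher, median 0.64), Schwann cell and neuron markers to 18.7 to 124 and 26.9 to 439 TPM (9 of 9 higher, median 1.04), and striated muscle markers to 5.74 to 14.2 and 6.89 to 56.6 TPM (4 of 6 higher, median 0.46). Chondrocyte markers summed to 27.3 to 37.0 TPM in control and 13.3 to 15.6 TPM in *Prdm16*SMKO libraries, mostly *Comp*. All 5 tested genes of the 11 in this list were lower. Among those below the minimum, *Col9a1*, *Col9a2* and *Col10a1* had higher means in *Prdm16*SMKO libraries, *Col2a1* and *Matn3* had lower means, and *Matn1* was at 0 throughout. At an unadjusted limma p under 0.05, which held for 3.85% of all genes lower and 4.88% higher, there were 6 macrophage markers, all higher. The VSMC and the endothelial markers each had 2 lower and 1 higher. There were also 3 chondrocyte markers and 1 of striated muscle, all lower. The adipocyte and the Schwann cell and neuron markers each had 1, both higher, and there was no fibroblast marker. The part of these cell types in the collagen values was not tested.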

How the data were processed

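RNA-seq values of 6 abdominal aorta libraries, 3 *Prdm16*SMKO and 3 control, were analyzed. The authors deposited TPM values, rounded to 2 decimals, for 55426 genes, 28867 of them at 0 throughout. Libraries were poly A selected with a kit that does not mark strand and read as 151 bp pairs, on average 40 M pairs a sample per the labels. The submitters' processing notes name bcl2fastq, cutadapt 2.3, FastQC 0.11.8, STAR 2.7.8a, RSEM 1.3.3, MultiQC 1.7 and GRCm38, and the annotation and filters are not given in the sources used here. TPM values keep no depth, so the counting error of a value is unknown. TPM of a gene also moves with the mitochondrial genes (15.8% to 27.4% of a library) and the 18S ribosomal RNA locus (13.8% to 28.8%).

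Groups were taken from the sample labels, the study describes each as 3 mice, and no 2 libraries held identical values. All 15775 genes whose mean reached 0.5 TPM were fitted as log2(TPM + 0.5) with limma 3.58.1 in R 4.3.3, with variances following a trend, no covariate, two-sided tests and Benjamini-Hochberg adjustment over all of them, and the threshold for a call was an adjusted p of 0.05. Fold changes on this scale understate the change of low genes. The code was tested on simulated data. Sums, shares and 7 ratios of TPM within a library were compared by two-sided exact permutation tests in Python 3.11.15 with scipy 1.17.1 (numpy 2.4.6, pandas 2.3.3, figures with matplotlib 3.10.9). Positions and exons came from GENCODE M21 and upstream windows from RefSeq. The alternatives were 2 pseudocounts, 2 minimums, 3 scalings, array weights, a replicate block and each of the 6 libraries left out, plus a pseudocount of 0.5 in the ratios.

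The members and gene lists were chosen with earlier results of these data known. Named genes are the 8 members, *Prdm16*, in each list the called genes and those with the highest mean and the lowest and highest log2 fold change, and the 5 genes most like the members; marker lists are given as counts and sums. Fold changes are printed for named genes away from 0, the others by level. *Itga11*, *Col2a1*, *Matn1*, *Col24a1*, *Mmp8* and *Mmp13* were named after their values were seen.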

Additional observations from a re-analysis of the deposited data

How the results depend on the processing

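Of the 7 chains tested, 6 were lower in *Prdm16*SMKO libraries under each of the 15 alternatives, and the number called was 0 in each except with array weights, where it was 1 (*Col3a1*). The number of genes called over all genes was 56 and became 10 with no minimum, 153 with size factors, 129 with quantile normalization, 109 without mitochondrial genes and the 18S locus, 494 with array weights and 5 (without control replicate 2) to 61 (without *Prdm16*SMKO replicate 1) when 1 library was left out. Pseudocounts of 0.1 and 1 gave 63 and 52 calls, and a minimum of 2 TPM gave 77. A block for the replicate number left 4 genes called and no chain. Replicate numbers are not said to pair mice. The deviations of same-numbered libraries from their group means correlated at −0.13, −0.11 and 0.02, and no library correlated best with its own number. Deviations within a group are bound to each other, so these values cannot show whether mice were paired. Leaving out 1 library moved the log2 difference of the *Col5a1* to *Col5a2* ratio between −0.00057 and 0.039, that of *Col5a2* to *Col1a1* between −0.14 and 0.11 and that of *Col5a1* to *Col1a1* between −0.10 and 0.11, and quantile normalization made the last −0.022, so none of these 3 has a direction here. *Comp* was not called with no minimum or with the block, and *Lox* was called with array weights and without *Prdm16*SMKO replicate 2 (adjusted p = 0.038). The causes of these shifts were not tested. Depth is unknown, and 3 libraries a group keep every permutation p at 0.1 or above.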
